A study of Mus musculus with 12 samples.

Results

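The genes described here are interferon-stimulated genes, a set of 43 symbols looked up by symbol in the tables of 12 mouse mammary tumors. Rows were found for 42 of the 43 among the 21960 genes listed, and the remaining one, Mx2, was not analysed here. They fall into a type I class, with 33 of 34 found, and an interferon-gamma-leaning class of 9 genes, namely Gbp2, Gbp3, Gbp5, Gbp6, Gbp7, Igtp, Irgm1, Irgm2 and Iigp1. The tumors came from female C57BL/6 mice carrying the polyoma middle T oncogene (PyMT), a transgene driven in the mammary epithelium by the MMTV promoter. Total RNA of whole tumors was sequenced, with 3 tumors in each of 4 groups. The IgG1 group received a control antibody and the anti-PD-1 group received the PD-1 blocking antibody 4H2, both from a first tumor of 0.6 cm, at 20 mg/kg and later at 10 mg/kg. The DOX/IgG1 and DOX/anti-PD-1 groups received doxorubicin (DOX), an anthracycline that damages DNA, at 5 mg/kg each week from a first tumor of 1 cm, and 10 mg/kg of the same antibodies a day after each dose. The protocol has the last antibody dose on day 18 in the groups without doxorubicin, whereas the labels give 5 weeks of treatment for every group. A difference between groups with and without doxorubicin therefore also includes the tumor size at the start, the antibody schedule and perhaps the length of treatment, and these cannot be told apart.

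Interferons are secreted proteins that cells release on sensing viral or self nucleic acids (type I, such as interferon-beta) or that activated T cells and NK cells release (interferon-gamma). Type I interferons signal through Ifnar1 and Ifnar2 to a complex with Stat2 and Irf9 that binds interferon-stimulated response elements (ISRE), while interferon-gamma signals through Ifngr1 and Ifngr2 to gamma-activated sites (GAS) and induces Irf1. The targets overlap widely: guanylate-binding proteins and immunity-related GTPases, which attack intracellular pathogens, respond most to interferon-gamma, but type I interferon also induces them. Irf1, placed with the type I class here, is itself a well-known interferon-gamma target. In tumors both types of interferon shape antigen presentation and T cell recruitment, and DNA-damaging drugs can induce type I interferon in tumor cells.

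The promoter sequences of 6 members are shown because the division into classes rests on how these genes are known to be switched on. RefSeq windows from 250 bases before to 50 bases after each start site, on build GRCm38.p6, were available for 32 of the 43 genes. There was no entry for Usp18, Dhx58, Zbp1, Oas2, Mx1, Mx2, Rtp4, Parp9, Parp14, Gbp6 and Iigp1. The windows are Gbp2 at chr3:142620413-142620712, plus strand, Igtp at chr11:58199306-58199605, plus strand, Irgm2 at chr11:58214727-58215026, plus strand, Irf1 at chr11:53769764-53770063, plus strand, Ifit1 at chr19:34640639-34640938, plus strand and Isg15 at chr4:156200769-156201068, minus strand. Capitals mark matches to an ISRE-type motif, GAAANNGAAA, or to a GAS motif, TTCNNNGAA, on either strand, and each line runs 5′ to 3′ along the gene.
Gbp2: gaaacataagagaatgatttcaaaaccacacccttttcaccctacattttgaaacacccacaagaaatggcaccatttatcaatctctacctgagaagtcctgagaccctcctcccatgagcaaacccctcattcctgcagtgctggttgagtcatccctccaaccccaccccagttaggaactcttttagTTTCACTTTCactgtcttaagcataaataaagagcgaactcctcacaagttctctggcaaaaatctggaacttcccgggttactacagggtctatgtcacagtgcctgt
Igtp: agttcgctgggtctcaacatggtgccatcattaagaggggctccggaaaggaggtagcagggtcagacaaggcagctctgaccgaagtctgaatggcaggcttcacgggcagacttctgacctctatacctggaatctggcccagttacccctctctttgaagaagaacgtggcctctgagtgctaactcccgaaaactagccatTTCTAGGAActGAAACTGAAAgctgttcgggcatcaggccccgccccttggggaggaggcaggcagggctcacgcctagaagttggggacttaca
Irgm2: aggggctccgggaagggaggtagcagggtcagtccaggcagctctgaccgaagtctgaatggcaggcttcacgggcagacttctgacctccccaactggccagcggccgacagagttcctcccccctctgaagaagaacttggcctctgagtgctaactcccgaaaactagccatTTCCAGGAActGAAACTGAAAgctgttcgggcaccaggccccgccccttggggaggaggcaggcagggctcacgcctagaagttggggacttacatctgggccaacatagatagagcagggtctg
Irf1: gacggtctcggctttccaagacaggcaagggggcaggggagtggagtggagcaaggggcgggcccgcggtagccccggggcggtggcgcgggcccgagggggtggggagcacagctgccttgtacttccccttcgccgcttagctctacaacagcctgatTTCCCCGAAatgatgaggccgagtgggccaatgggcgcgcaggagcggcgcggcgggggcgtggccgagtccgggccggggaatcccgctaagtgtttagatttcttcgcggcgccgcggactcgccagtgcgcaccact
Ifit1: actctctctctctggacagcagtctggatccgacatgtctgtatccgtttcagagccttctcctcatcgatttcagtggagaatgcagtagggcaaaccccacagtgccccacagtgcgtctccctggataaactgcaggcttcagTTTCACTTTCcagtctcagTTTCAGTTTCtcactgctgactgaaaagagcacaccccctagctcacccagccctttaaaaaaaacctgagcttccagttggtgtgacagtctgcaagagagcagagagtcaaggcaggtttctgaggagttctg
Isg15: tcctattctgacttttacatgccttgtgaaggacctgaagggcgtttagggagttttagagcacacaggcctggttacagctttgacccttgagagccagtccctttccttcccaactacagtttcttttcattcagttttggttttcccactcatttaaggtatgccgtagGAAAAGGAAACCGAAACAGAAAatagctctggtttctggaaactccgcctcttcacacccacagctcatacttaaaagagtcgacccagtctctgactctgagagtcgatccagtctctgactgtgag

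Igtp and Irgm2 each held 1 GAS match followed after a few bases by 1 ISRE-type match, Gbp2 held 1 ISRE-type match, and Irf1 held 1 GAS match and no ISRE-type match. Ifit1 had 2 ISRE-type matches and Isg15 had 3 that run into each other. Among all 32 members with a window, 20 had an ISRE-type match (62.5%, against 3.99% of all 27025 genes in the table) and 11 had a GAS match (34.4%, against 9.55%). In the interferon-gamma-leaning class all 7 genes with a window had an ISRE-type match, and Gbp5, Gbp7, Igtp and Irgm2 had both motifs. Of the 25 type I genes with a window 13 had an ISRE-type match, 7 had a GAS match and 3 had both, and 8 had neither (Irf7, Irf9, Oasl1, Oasl2, Cmpk2, Samd9l, Ifi44 and Xaf1). Matches to both motifs overlapped in 1 member, Bst2, and in 23 of all genes. These matches describe letters in a window and were not tied to any measured value.

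**Figure D1:**
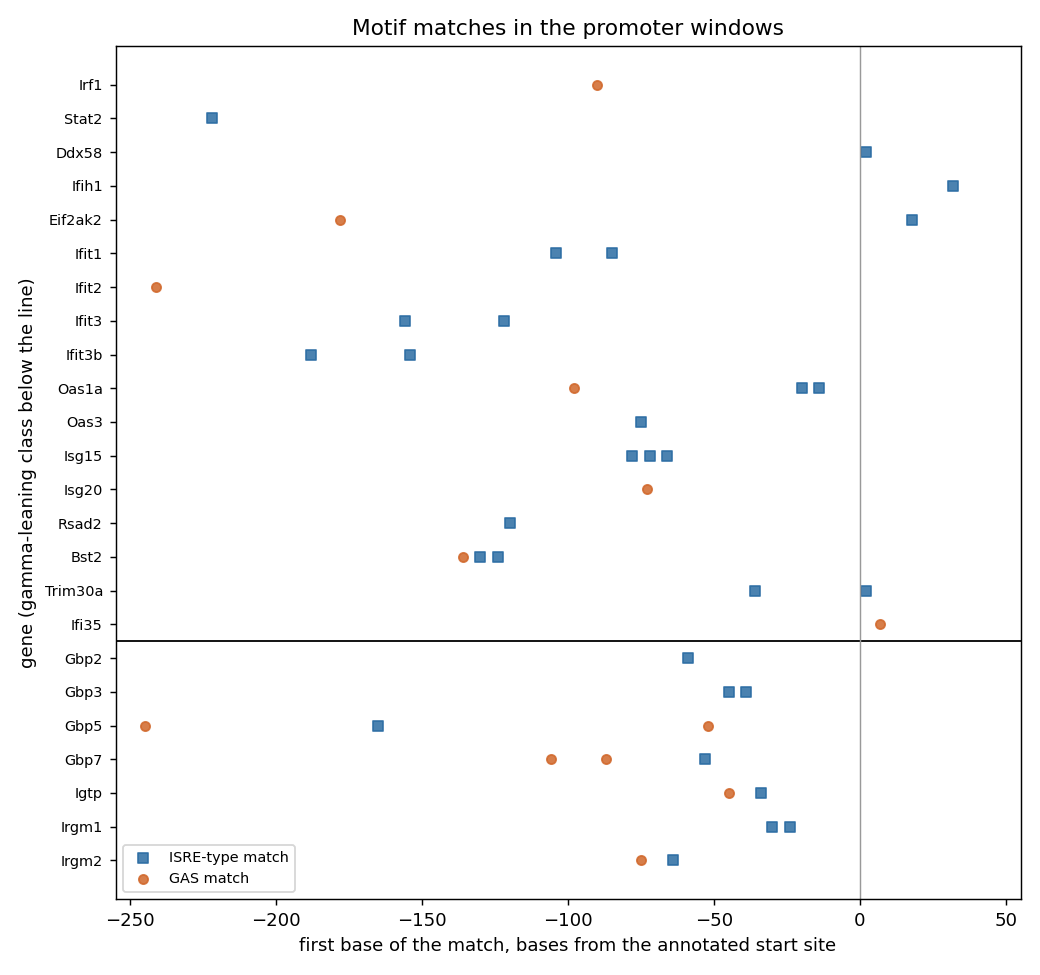
Position of each motif match in the promoter windows of members with at least 1 match, in bases from the annotated start site, for ISRE-type (squares) and GAS (circles) motifs. Genes of the interferon-gamma-leaning class lie below the line, and all 7 of them with a window show an ISRE-type match.

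All 42 genes were expressed in all 12 tumors, and none was listed at 0 in any. Levels are given in TPM, a relative transcript abundance scaled by transcript length, on the authors' word for the unit, and differences are on the scale of log2(TPM + 1). The mean over the 12 tumors ran from 4.3 TPM for Gbp5 to 186 TPM for Irf7, with a median of 42.3 TPM over members, and 5 members were above 100 TPM. Single genes differed between the highest and the lowest tumor by 1.65-fold (Ifih1) to 12.6-fold (Gbp5). Several members are neighbors: Ifit2, Ifit3, Ifit3b and Ifit1 lie together on chr19:34550694-34650009, Gbp5, Gbp7, Gbp3 and Gbp2 together on chromosome 3, and Oas2, Oas3 and Oas1a together on chromosome 5. The annotated spans of Igtp (chr11:58199556-58207591) and Irgm2 (chr11:58199618-58222782) overlap by 7974 bases on the same strand. Their transcripts share less: 7.8% of the 75-base windows of Igtp and 4.78% of those of Irgm2 also occur in other genes, most in each other. Reads from such windows could count for either. Sequence shared with relatives makes some values uncertain as well. Of the 75-base windows in transcripts of Gbp6, 67.3% also occur in other annotated genes. Gm43302 shared the most and was listed separately at 0 to 8.73 TPM. The shares were 47.6% for Oas1a, where Oas1g shared the most, and 41.1% for Ifit3, where Ifit3b did. In all, 8 of 42 members shared more than 5% of such windows with other genes.

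Of 21 interferon genes 12 were listed at 0 in every tumor, and Ifnk was the only one above 0 in all of them, from 2.66 to 17.15 TPM. The 21 together summed to between 3.50 and 22.63 TPM, most in anti-PD-1 tumor 1. Ifng, which encodes interferon-gamma, was listed at 0.53 TPM in 1 anti-PD-1 tumor and 4.29 TPM in 1 DOX/IgG1 tumor and at 0 in the other 10, and Ifnb1, which encodes interferon-beta, at 2.32 TPM in 1 anti-PD-1 tumor and at 0 in the other 11. Ligand transcripts are scarce even where interferon acts, and the sequencing depth of these tumors is not known, so an entry of 0 does not show that a ligand was missing. The receptor chains were all expressed. Ifnar1 ranged from 36.2 to 71.3 TPM, Ifnar2 from 109 to 345 TPM, Ifngr1 from 47.1 to 115 TPM and Ifngr2 from 15.4 to 41.7 TPM over the 12 tumors.

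Among the kinases that the receptors activate, Jak1 ranged from 56.1 to 103 TPM, Jak2 from 20.2 to 62.5 TPM and Tyk2 from 16.6 to 27.5 TPM. In the fit across all genes with limma, no receptor or kinase passed the limits in any comparison, which were an adjusted p of less than 0.1 together with a log2 fold change beyond 1 in either direction. Ifngr1, the ligand-binding chain of the interferon-gamma receptor, was higher in every doxorubicin-treated tumor than in every tumor of the matching antibody group, with log2 fold changes of 0.50 ± 0.25 and 0.46 ± 0.22 SE and adjusted p of 0.691 and 0.609. Of all genes, 9.31% and 11.1% were higher without overlap in these comparisons. Jak1 was also higher without overlap in DOX/anti-PD-1 against anti-PD-1 tumors (0.27 ± 0.22 SE). Ifnar2 was lower in all DOX/IgG1 tumors than in all IgG1 tumors (log2 fold change -0.59 ± 0.24 SE, adjusted p = 0.611), against 4.64% of all genes, and Jak2 differed by 0.80 ± 0.35 SE with an adjusted p of 0.641.

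Averaging log2(TPM + 1) over the members of a class gave 1 level per tumor. For the type I class these were 5.08, 5.12 and 5.24 in the IgG1 tumors, 5.81, 5.16 and 5.16 in the anti-PD-1 tumors, 5.83, 5.568 and 5.29 in the DOX/IgG1 tumors and 5.70, 5.60 and 5.17 in the DOX/anti-PD-1 tumors. For the interferon-gamma-leaning class they were 4.75, 4.67 and 4.89 in the IgG1 tumors, 5.40, 4.75 and 4.69 in the anti-PD-1 tumors, 5.86, 5.53 and 5.39 in the DOX/IgG1 tumors and 5.10, 5.12 and 4.41 in the DOX/anti-PD-1 tumors. Both classes were higher in all DOX/IgG1 tumors than in all IgG1 tumors. After rescaling by the median of ratios this held for the interferon-gamma-leaning class, whereas the type I means overlapped, with 5.30 in IgG1 tumor 1 and 5.19 in DOX/IgG1 tumor 3. The anti-PD-1 group held 1 high tumor, the first, above 2 others at the level of the controls. The interferon-gamma-leaning mean of DOX/anti-PD-1 tumors lay below that of all DOX/IgG1 tumors, while the type I means of these groups overlapped. The mean over all genes tested, computed in the same way, lay between 3.81 and 4.18 in all tumors.

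The difference between the classes did not overlap in 3 of the 4 pairwise comparisons, all but anti-PD-1 against IgG1. The type I mean minus the interferon-gamma-leaning mean was 0.33, 0.45 and 0.34 in the IgG1 tumors, 0.41, 0.41 and 0.47 in the anti-PD-1 tumors, -0.04, 0.04 and -0.10 in the DOX/IgG1 tumors and 0.60, 0.48 and 0.76 in the DOX/anti-PD-1 tumors. It stood close to 0 in the DOX/IgG1 tumors and between 0.33 and 0.76 in the other 9. It was lower in all DOX/IgG1 than in all IgG1 tumors (by -0.41 on average) and above every anti-PD-1 tumor in each DOX/anti-PD-1 tumor (by 0.18 on average). Each DOX/anti-PD-1 tumor was also above every DOX/IgG1 tumor (by 0.65 on average). No test of this score was made, since the classes were chosen with results of these data known. Leaving out any 1 tumor left the difference of DOX/IgG1 from IgG1 tumors between -0.44 and -0.37. For DOX/anti-PD-1 against anti-PD-1 tumors it lay between 0.11 and 0.25.

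**Figure D2:**
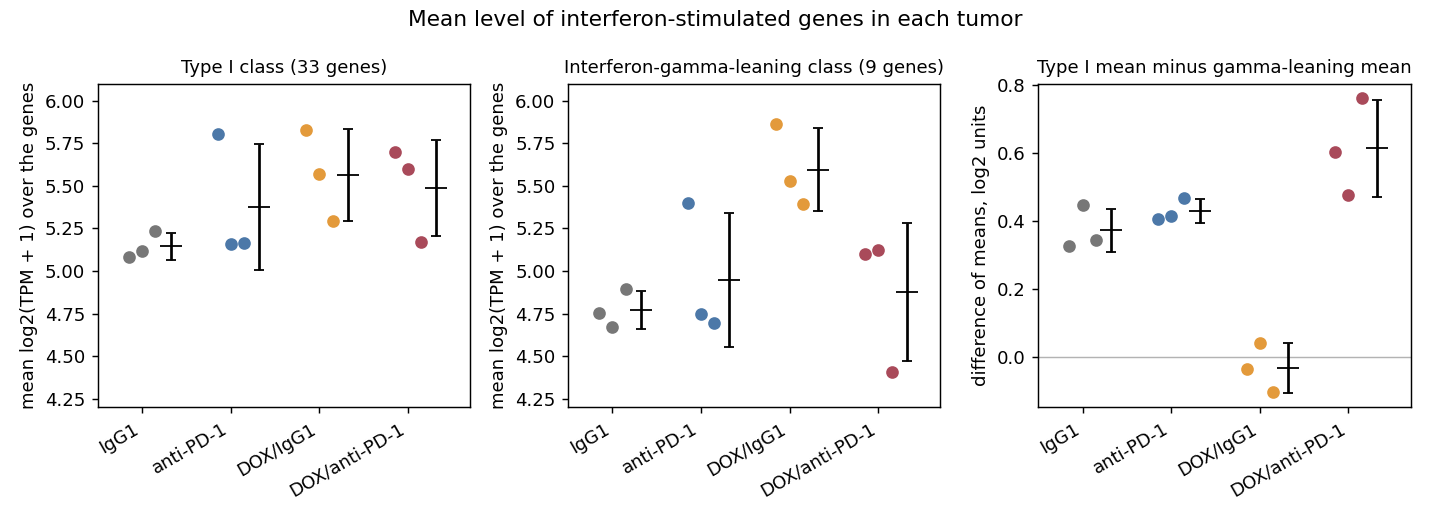
Mean log2(TPM + 1) of the type I class (33 genes) and of the interferon-gamma-leaning class (9 genes) in each tumor, and the type I mean minus the interferon-gamma-leaning mean. Points are tumors, and bars give the mean ± SD of 3 tumors. The DOX/IgG1 tumors lie between -0.10 and 0.04 in the right panel.

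Single tumors held many of the extreme values. DOX/IgG1 tumor 1 had the highest value of 15 of the 42 members (35.7%, against 14.9% of all genes), and anti-PD-1 tumor 1 that of 12 (28.6%, against 7.44%). The lowest values lay in IgG1 tumor 1 for 15 members (35.7%, against 18.6% of all genes) and in DOX/anti-PD-1 tumor 3 for 13 (31.0%, against 10.6%). IgG1 tumor 1 also had the lowest mean over all genes, 3.81, and its factor by the median of ratios was 0.851. In DOX/anti-PD-1 tumor 3 the low values were in 5 of the 9 interferon-gamma-leaning genes and 8 of the 33 type I genes. In anti-PD-1 tumor 1, 11 of the 12 highest values belonged to the type I class.

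**Figure D3:**
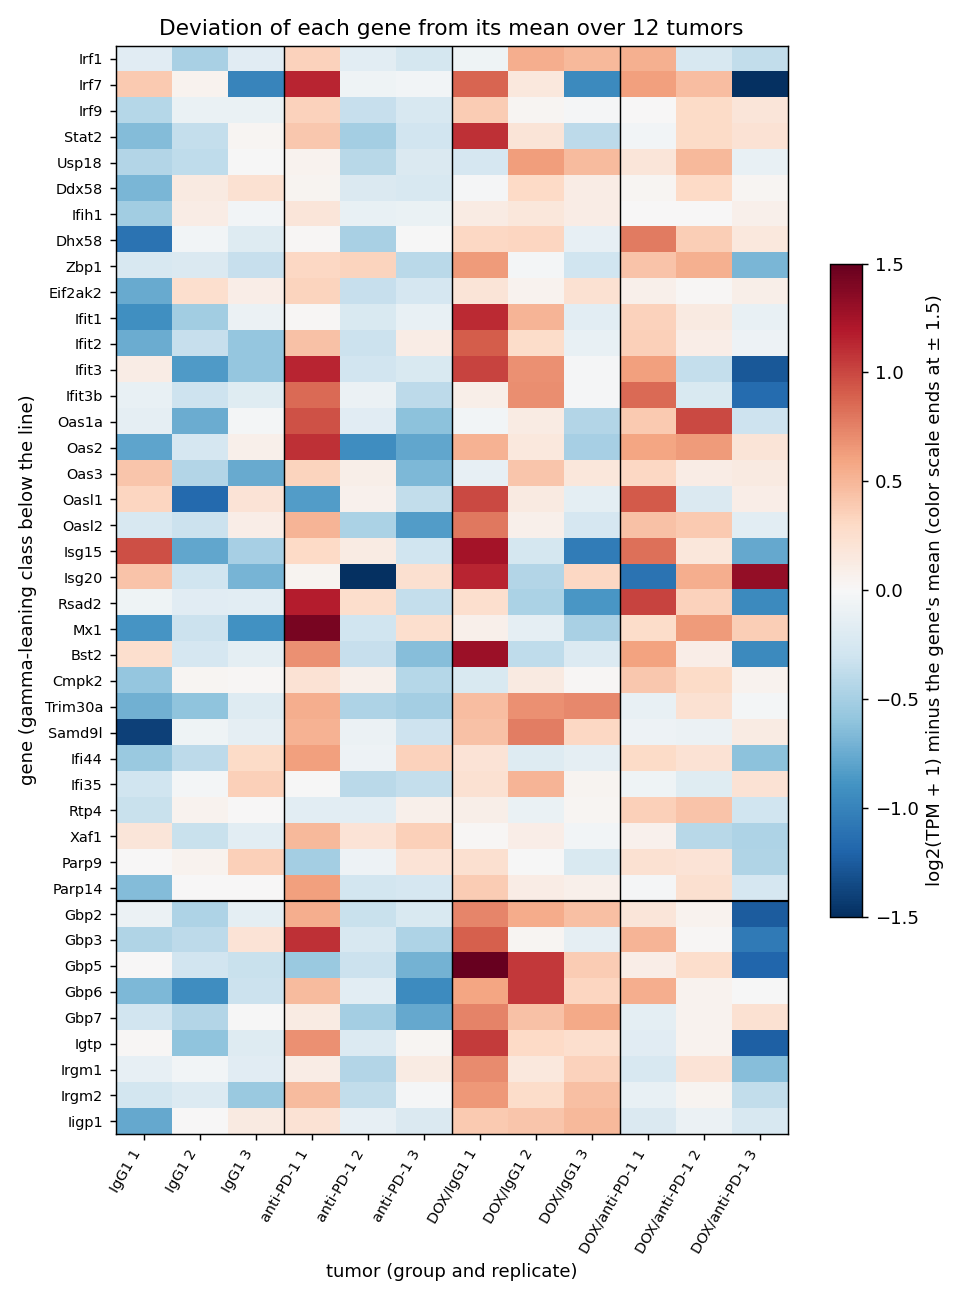
Deviation of each gene from its own mean log2(TPM + 1) over the 12 tumors, with red above and blue below that mean, and tumors in columns by group. Anti-PD-1 tumor 1 and DOX/IgG1 tumor 1 are red over much of the type I class, and the 3 DOX/IgG1 tumors are red over most of the interferon-gamma-leaning class.

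The comparison of DOX/IgG1 with IgG1 asks what chemotherapy did without checkpoint blockade. Here 40 of the 42 genes had higher means, including all 9 of the interferon-gamma-leaning class. The largest differences were Gbp6 (log2 fold change 1.30 ± 0.33 SE, adjusted p = 0.460) and Gbp5 (log2 fold change 1.22 ± 0.44 SE) in that class, and Trim30a (log2 fold change 1.13 ± 0.27 SE, adjusted p = 0.460), a ubiquitin ligase that restrains inflammatory signaling, in the type I class. No member passed the call: limma called 0 of 42 members, against 5 of 13874 genes tested (0.0360%). These 5 became 96 higher and 26 lower without DOX/IgG1 tumor 1, 2 without DOX/IgG1 tumor 2 and 0 without any other tumor, with 0 members called each time. Of the members 13 were higher and 0 lower at an unadjusted p below 0.05, against 5.03% of all genes higher and 2.70% lower. The median log2 fold change was 0.81 in the interferon-gamma-leaning class, 0.37 in the type I class and 0.12 over all genes. Rescaling the libraries by the median of ratios took the median of all genes to 0.01 here, from 0.11 to -0.01 for DOX/anti-PD-1 tumors against anti-PD-1 tumors, and left the class medians here at 0.69 and 0.25. Rescaled in this way, 10 members were at an unadjusted p below 0.05, against 527 genes higher and 590 lower of 13835. The count of 13 became 7 without IgG1 tumor 2, and to 8 without IgG1 tumor 3 or without DOX/IgG1 tumor 1.

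Within the guanylate-binding proteins, GTPases that coat and break pathogen vacuoles, Gbp2 was measured at 43, 33 and 41.2 TPM in the IgG1 tumors, 67.4, 36.3 and 39.1 in the anti-PD-1 tumors, 76.6, 68.2 and 62.9 in the DOX/IgG1 tumors and 52.2, 47.6 and 18.7 in the DOX/anti-PD-1 tumors. Gbp3 was at 43.4, 45.2 and 69.2 TPM in the IgG1 tumors, 129, 50.5 and 43.3 in the anti-PD-1 tumors, 112, 61.2 and 54.4 in the DOX/IgG1 tumors and 85.9, 60.7 and 28.1 in the DOX/anti-PD-1 tumors. Gbp5, which also promotes inflammasome assembly, was the least abundant, at 3.63, 2.77 and 2.64 TPM in the IgG1 tumors, 2.13, 2.68 and 1.82 in the anti-PD-1 tumors, 12.8, 8.59 and 5 in the DOX/IgG1 tumors and 3.95, 4.53 and 1.02 in the DOX/anti-PD-1 tumors. Gbp2 and Gbp5 were above every IgG1 tumor in all DOX/IgG1 tumors, whereas the Gbp3 values of these groups overlapped. Gbp6 was at 11.1, 9.14 and 14.5 TPM in the IgG1 tumors, 26, 16.3 and 9.09 in the anti-PD-1 tumors, 28.2, 39.3 and 23.2 in the DOX/IgG1 tumors and 27.2, 19.2 and 18.4 in the DOX/anti-PD-1 tumors. Gbp7 was at 17.9, 16.1 and 22 TPM in the IgG1 tumors, 24.2, 15.2 and 12.7 in the anti-PD-1 tumors, 37.7, 30.5 and 33.4 in the DOX/IgG1 tumors and 19.99, 23.1 and 26.2 in the DOX/anti-PD-1 tumors. For Gbp6 and Gbp7 the DOX/IgG1 tumors again lay above all IgG1 tumors, and for Gbp7 above every other tumor of the study. The log2 fold changes of DOX/IgG1 over IgG1 were 0.81 for Gbp2, 0.83 for Gbp7 and 0.48 for Gbp3, with adjusted p of 0.479, 0.532 and 0.768 by limma.

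The immunity-related GTPases load onto vacuoles to disrupt them or to regulate that attack. Igtp was at 37.7, 24.2 and 32.6 TPM in the IgG1 tumors, 60.8, 32.3 and 38.1 in the anti-PD-1 tumors, 78.5, 46.3 and 44.8 in the DOX/IgG1 tumors and 33.2, 38.9 and 15.4 in the DOX/anti-PD-1 tumors. Irgm1 was at 57.6, 60.7 and 55.5 TPM in the IgG1 tumors, 67.5, 45.8 and 68.3 in the anti-PD-1 tumors, 103, 69.7 and 79.8 in the DOX/IgG1 tumors and 52.8, 72.2 and 39.9 in the DOX/anti-PD-1 tumors. Irgm2 was at 31.5, 33.2 and 25.7 TPM in the IgG1 tumors, 53.5, 29.4 and 37.9 in the anti-PD-1 tumors, 60.9, 46.7 and 52.6 in the DOX/IgG1 tumors and 35.3, 39.5 and 29.4 in the DOX/anti-PD-1 tumors. For these 3 genes every DOX/IgG1 tumor was above every IgG1 tumor. Iigp1, the effector member, was at 48.2, 82.8 and 91.2 TPM in the IgG1 tumors, 96.6, 76.1 and 71 in the anti-PD-1 tumors, 109, 111 and 116 in the DOX/IgG1 tumors and 71, 77.8 and 69.95 in the DOX/anti-PD-1 tumors. Its DOX/IgG1 values were close together and above the other 9 tumors. The log2 fold changes were 0.81 for Irgm2, 0.80 for Igtp, 0.64 for Iigp1 and 0.51 for Irgm1, with 95% intervals of 0.25 to 1.36 for Irgm2, 0.02 to 1.27 for Iigp1 and -0.02 to 1.05 for Irgm1. In all, 8 of the 9 genes of the class did not overlap between the groups, each with the smallest exact permutation p that 3 tumors against 3 allow, 0.1, against 9.31% of all genes not overlapping in the higher direction and 4.64% in the lower.

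**Figure D4:**
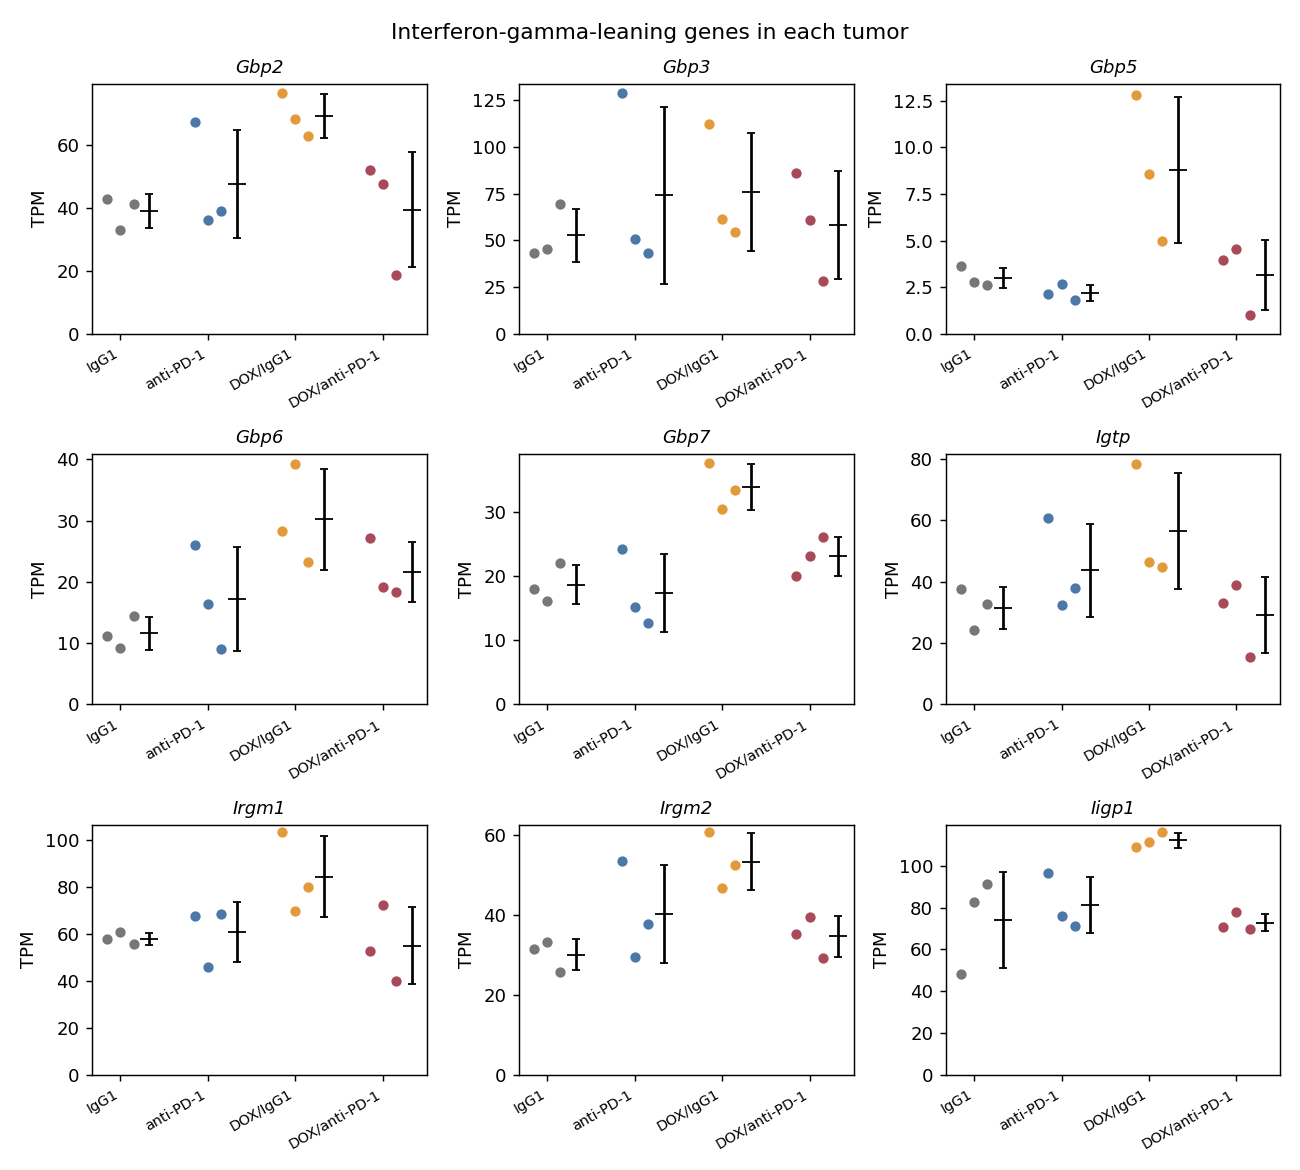
TPM of the 9 interferon-gamma-leaning genes in each tumor, with the mean ± SD of 3 tumors beside the points of each group. All axes start at 0. The DOX/IgG1 tumors lie above all IgG1 tumors for every gene shown but Gbp3.

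Among the type I genes the 5 regulators had higher means in DOX/IgG1 than in IgG1 tumors, and their median log2 fold change was 0.56. Irf7, the factor that amplifies type I interferon production and the most abundant member, was at 214, 169 and 81.5 TPM in the IgG1 tumors, 362, 156 and 159 in the anti-PD-1 tumors, 299, 181 and 83.7 in the DOX/IgG1 tumors and 251, 225 and 51.4 in the DOX/anti-PD-1 tumors. Its range within each group exceeded the differences between the group means. Irf9, which joins Stat2 and contacts the DNA, was at 51.7, 65.4 and 65.2 TPM in the IgG1 tumors, 89.3, 54.8 and 58.9 in the anti-PD-1 tumors, 91, 71.4 and 68.9 in the DOX/IgG1 tumors and 70.3, 85.6 and 79.2 in the DOX/anti-PD-1 tumors. Stat2 was at 14.8, 18.5 and 24.5 TPM in the IgG1 tumors, 32, 16.5 and 19.4 in the anti-PD-1 tumors, 52.4, 27.6 and 18 in the DOX/IgG1 tumors and 23.3, 29.4 and 27.9 in the DOX/anti-PD-1 tumors. Irf9 was higher in all DOX/IgG1 than in all IgG1 tumors, and Stat2 was not because of 1 low DOX/IgG1 value. Irf1 was at 54.5, 43.6 and 54.6 TPM in the IgG1 tumors, 78.4, 55.1 and 50.9 in the anti-PD-1 tumors, 59, 90.4 and 86.5 in the DOX/IgG1 tumors and 89.4, 51.9 and 47.5 in the DOX/anti-PD-1 tumors. Usp18, which removes Isg15 from proteins and damps the type I receptor, was at 36.5, 38.1 and 49.8 TPM in the IgG1 tumors, 51.9, 37.2 and 42.8 in the anti-PD-1 tumors, 41.8, 77.8 and 69.8 in the DOX/IgG1 tumors and 57, 70.1 and 46.1 in the DOX/anti-PD-1 tumors. Irf1 was above all IgG1 tumors in all DOX/IgG1 tumors (log2 fold change 0.60 ± 0.25 SE, adjusted p = 0.629), and the Usp18 values overlapped.

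The sensors of foreign or displaced nucleic acids had a median log2 fold change of 0.29 in this comparison, with all 5 higher and 0 at an unadjusted p below 0.05. The median was 0.18 after rescaling by the median of ratios and 0.09 without IgG1 tumor 1. Ddx58, which encodes RIG-I, was the most abundant at 92.1, 163 and 175 TPM in the IgG1 tumors, 152, 128 and 125 in the anti-PD-1 tumors, 146, 183 and 160.2 in the DOX/IgG1 tumors and 152, 183 and 152 in the DOX/anti-PD-1 tumors. Dhx58, a regulator of RIG-I and Mda5, was at 14.8, 31.9 and 28.6 TPM in the IgG1 tumors, 33.3, 23.3 and 32.7 in the anti-PD-1 tumors, 41.2, 41.3 and 30.3 in the DOX/IgG1 tumors and 57.2, 43 and 36.9 in the DOX/anti-PD-1 tumors. The Ddx58 and Dhx58 values of DOX/IgG1 and IgG1 tumors overlapped, with IgG1 tumor 1 lowest for both genes. The other sensors ranged over the 12 tumors from 45.5 to 74.8 TPM (Ifih1, which encodes Mda5), from 16.9 to 43.7 TPM (Zbp1) and from 83.7 to 179 TPM (Eif2ak2, the kinase PKR).

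The IFIT family, which binds viral RNA, had the highest median among the type I lists, 0.95. Ifit1 was at 46.1, 61 and 83 TPM in the IgG1 tumors, 89.3, 74.8 and 81.5 in the anti-PD-1 tumors, 193, 126 and 79 in the DOX/IgG1 tumors and 113, 96.7 and 81.3 in the DOX/anti-PD-1 tumors. Ifit2 was at 14.7, 19.7 and 16.7 TPM in the IgG1 tumors, 34.8, 19.99 and 27.5 in the anti-PD-1 tumors, 48.2, 30.7 and 23.4 in the DOX/IgG1 tumors and 32.6, 27.2 and 23.9 in the DOX/anti-PD-1 tumors. Ifit3 was at 62.4, 31.6 and 38.2 TPM in the IgG1 tumors, 128, 46.9 and 49.1 in the anti-PD-1 tumors, 117, 93.2 and 57 in the DOX/IgG1 tumors and 88.8, 44.9 and 23.3 in the DOX/anti-PD-1 tumors. In this family the first DOX/IgG1 tumor was highest of its group for these 3 genes, and Ifit2 alone of them had every DOX/IgG1 tumor above every IgG1 tumor. The log2 fold changes were 1.00 ± 0.36 SE for Ifit1, 1.00 ± 0.35 for Ifit3 and 0.91 ± 0.33 for Ifit2, each with an adjusted p between 0.560 and 0.568 by limma. Ifit3b ranged from 11.9 to 50.7 TPM and also did not overlap between these groups. The OAS family, which includes the enzymes that make the oligoadenylates activating RNase L, had a median of 0.39 with all 5 higher. The most abundant of them, Oasl2, was at 117, 110.4 and 148 TPM in the IgG1 tumors, 197, 98.9 and 77 in the anti-PD-1 tumors, 239, 146 and 116 in the DOX/IgG1 tumors and 187, 181 and 124 in the DOX/anti-PD-1 tumors. Oasl1 was at 17.9, 5.75 and 16.4 TPM in the IgG1 tumors, 7.44, 14.8 and 10.8 in the anti-PD-1 tumors, 28.9, 15.6 and 12.7 in the DOX/IgG1 tumors and 27.6, 12.1 and 15.2 in the DOX/anti-PD-1 tumors. Neither separated the groups. Oas1a ranged from 11.7 to 41.4 TPM, Oas2 from 9.38 to 41.3 TPM and Oas3 from 2.26 to 6.35 TPM.

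The other antiviral effectors held the only members with lower means, with 12 of 14 higher and a median of 0.22, or 10 of 14 higher and 0.10 after rescaling by the median of ratios. Trim30a was at 15.1, 16.3 and 22 TPM in the IgG1 tumors, 37.4, 18.2 and 17.6 in the anti-PD-1 tumors, 35.3, 41.5 and 42.5 in the DOX/IgG1 tumors and 23.5, 30.01 and 24.8 in the DOX/anti-PD-1 tumors. Samd9l, a restriction factor for poxviruses, was at 12.7, 33.3 and 31.8 TPM in the IgG1 tumors, 50.8, 32.9 and 28 in the anti-PD-1 tumors, 47.6, 60.3 and 43.5 in the DOX/IgG1 tumors and 33.1, 32.8 and 38.2 in the DOX/anti-PD-1 tumors. Both were above all IgG1 tumors in all DOX/IgG1 tumors, and the log2 fold change of Samd9l was 1.04 ± 0.38 SE with a 95% interval of 0.17 to 1.90. Isg15, the ubiquitin-like modifier, was at 26.2, 7.12 and 8.84 TPM in the IgG1 tumors, 16.1, 14.1 and 10.3 in the anti-PD-1 tumors, 31.9, 10.6 and 5.7 in the DOX/IgG1 tumors and 23.7, 14.7 and 7.16 in the DOX/anti-PD-1 tumors. Bst2, which tethers virions to the cell surface, was at 69.4, 48.7 and 52.2 TPM in the IgG1 tumors, 93.9, 45.3 and 37 in the anti-PD-1 tumors, 142, 44.4 and 50.1 in the DOX/IgG1 tumors and 88.6, 62.2 and 29.5 in the DOX/anti-PD-1 tumors. Rsad2, which encodes viperin, was at 36.7, 34.1 and 34.3 TPM in the IgG1 tumors, 88.1, 46.4 and 29.8 in the anti-PD-1 tumors, 45.9, 27.5 and 20.5 in the DOX/IgG1 tumors and 78.8, 49.3 and 19.4 in the DOX/anti-PD-1 tumors. For Isg15 and Bst2 the first DOX/IgG1 tumor was the highest of all 12, while of the other 2 in its group 1 lay within the range of the IgG1 tumors and 1 below it. Rsad2 and Parp9 were the 2 members with lower means in DOX/IgG1 than in IgG1 tumors. Ifi35 was at 33.3, 40.2 and 53.1 TPM in the IgG1 tumors, 41.1, 30.9 and 31.9 in the anti-PD-1 tumors, 48.4, 59 and 42.5 in the DOX/IgG1 tumors and 39.4, 36.1 and 48 in the DOX/anti-PD-1 tumors. The groups overlapped for Ifi35 and for the remaining effectors apart from Parp14. Those ranged from 1.94 to 19.7 TPM for Isg20, from 13.5 to 27.6 TPM for Cmpk2, from 48.6 to 116 TPM for Ifi44, from 74.3 to 126 TPM for Rtp4, from 75 to 138 TPM for Parp9 and from 48.2 to 118 TPM for Parp14. Over both classes 15 of 42 members did not overlap and were higher, against 9.31% of all genes.

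The comparison of DOX/anti-PD-1 tumors with anti-PD-1 tumors asks the same with checkpoint blockade given, and shares no tumor with the one above. The interferon-gamma-leaning class was not uniformly higher in it. The class had 3 of 9 genes higher and a median log2 fold change of -0.16, with single genes between -0.61 (Igtp) and 0.43 (Gbp7), and Gbp6 at 0.41. The type I class had 24 of 33 genes higher and a median of 0.15, against 0.11 over all genes. After rescaling by the median of ratios 17 of the 33 were higher, with a median of 0.02, and the median of the other antiviral effectors turned from 0.03 to -0.10. The interferon-gamma-leaning median was then -0.28, again with 3 of 9 genes higher. Limma called 0 of 42 members and 0 of 13736 genes (0%). At an unadjusted p below 0.05, 1 member, Xaf1, was lower and 0 were higher, against 2.33% and 6.30% of all genes. Rescaled, 546 of 13732 genes were higher and 578 lower at that limit. Xaf1, a pro-apoptotic antagonist of XIAP, was at 75.1, 52.1 and 59.2 TPM in the IgG1 tumors, 92.5, 76.5 and 84.8 in the anti-PD-1 tumors, 66.6, 70.8 and 64.4 in the DOX/IgG1 tumors and 69.2, 49.2 and 47.7 in the DOX/anti-PD-1 tumors. All anti-PD-1 tumors were above all DOX/anti-PD-1 tumors for Xaf1 (log2 fold change -0.62 ± 0.23 SE, adjusted p = 0.532). Each DOX/anti-PD-1 tumor exceeded each anti-PD-1 tumor for Dhx58 (log2 fold change 0.60 ± 0.27 SE, adjusted p = 0.582), and Oasl1 differed by 0.65 ± 0.39 SE with overlap. Xaf1 and Dhx58 were the only members without overlap, against 3.84% of all genes lower and 11.1% higher. The median of the interferon-gamma-leaning class turned to 0.05 without anti-PD-1 tumor 1 and to 0.12 without DOX/anti-PD-1 tumor 3, and that of the type I class to -0.0033 without anti-PD-1 tumor 3. The count of 1 became 2 without anti-PD-1 tumor 1 and 0 without anti-PD-1 tumor 3 or without DOX/anti-PD-1 tumor 2.

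**Figure D5:**
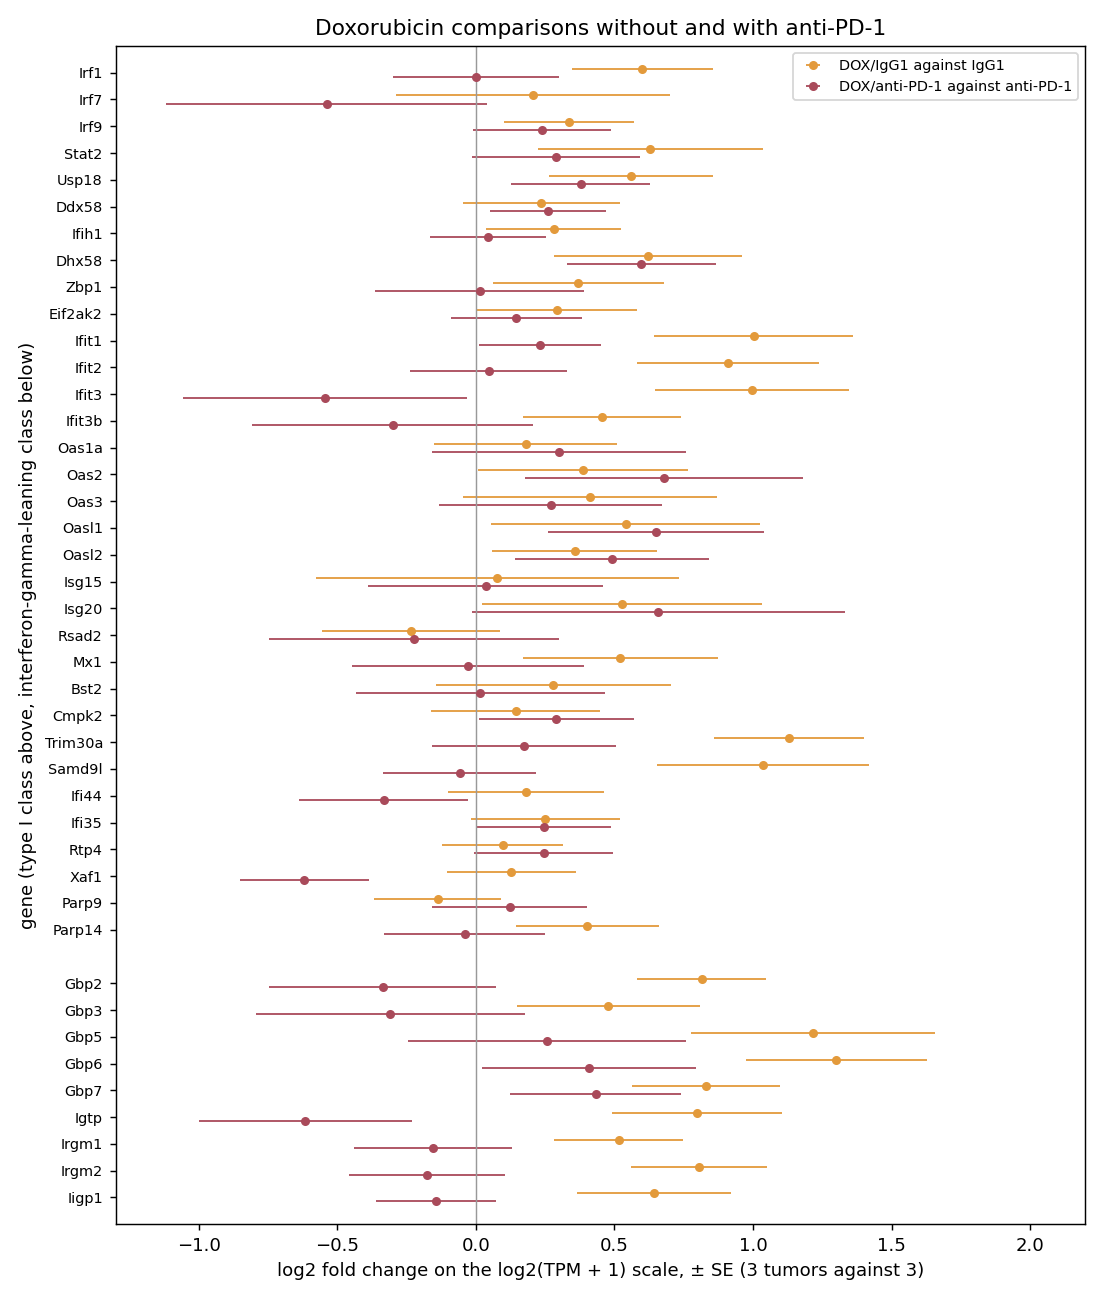
Log2 fold change on the log2(TPM + 1) scale ± SE (limma, 3 tumors against 3) of each member for DOX/IgG1 against IgG1 (orange) and for DOX/anti-PD-1 against anti-PD-1 (red). All 9 interferon-gamma-leaning genes, at the bottom, lie above 0 in orange, and 6 of them lie below 0 in red.

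Set side by side, 27 of the 42 members (64.3%) had the same sign in both doxorubicin comparisons, 24 of 33 in the type I class (72.7%) and 3 of 9 in the interferon-gamma-leaning class (33.3%), against 58.9% of all 13391 genes tested in both. After rescaling by the median of ratios the shares were 52.4% of members and 57.6% of the type I class, against 56.8% of all genes. The other 6 of that class were Gbp2, Gbp3, Igtp, Irgm1, Irgm2 and Iigp1, all higher with doxorubicin and IgG1 and lower with doxorubicin and anti-PD-1. The OAS family had medians of 0.39 and 0.49, with its mean overlapping and 0 genes at an unadjusted p below 0.05 in both. The IFIT family was at 0.95 and -0.13. Its second median was -0.25 after rescaling, with 1 of 4 genes higher. It turned to 0.15 without anti-PD-1 tumor 1 and to 0.17 without DOX/anti-PD-1 tumor 3. The interaction between chemotherapy and blockade, fitted on all 12 tumors, tests this difference for each gene. Limma called 0 of 42 members, against 1 of 14735 genes (0.00679%), and all members had an adjusted p of at least 0.993. At an unadjusted p below 0.05, 8 members were lower and 0 higher, against 2.45% and 2.26% of all genes. They were Igtp (-1.41 ± 0.52 SE), Irgm2 (-0.98 ± 0.36), Gbp2 (-1.15 ± 0.50) and Iigp1 (-0.79 ± 0.35) in the interferon-gamma-leaning class, and Xaf1 (-0.75), Ifit3 (-1.54), Samd9l (-1.09) and Trim30a (-0.95) in the type I class. The median interaction was -0.89 in the interferon-gamma-leaning class, with all 9 below 0, and -0.18 in the type I class, against -0.01 over all genes. The count of 8 became 1 without anti-PD-1 tumor 1, 2 without DOX/IgG1 tumor 2, 3 without DOX/anti-PD-1 tumor 3, 4 without IgG1 tumor 2 or DOX/IgG1 tumor 1, and 5 without IgG1 tumor 1. It was 2 when the variance was estimated without a trend.

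DOX/anti-PD-1 against DOX/IgG1 asks what the blocking antibody added to chemotherapy, and shares its tumors with the comparisons above. All 9 interferon-gamma-leaning genes had lower means in DOX/anti-PD-1 tumors, with a median log2 fold change of -0.62, while the type I class was at -0.09 with 21 of 33 lower. The median of all genes was -0.04. The lowest p belonged to Iigp1 (log2 fold change -0.62 ± 0.20 SE, adjusted p = 0.988). Igtp differed by -0.98 ± 0.39 SE, Gbp2 by -0.92 ± 0.38, Irgm2 by -0.61 ± 0.25 and Gbp5 by -1.28 ± 0.55, and Trim30a was at -0.59 ± 0.25 and Samd9l at -0.52 ± 0.24 in the type I class. Limma called 0 of 42 members and 0 of 13946 genes (0%). Of the members 6 were lower and 0 higher at an unadjusted p below 0.05, against 2.89% and 1.81% of all genes. Gbp2, Gbp5, Gbp7, Igtp, Irgm2, Iigp1, Ifih1, Trim30a and Samd9l were lower without overlap, against 5.95% of all genes. Only Mx1, a gene of the dynamin-like GTPase family, was higher without overlap (log2 fold change 0.61 ± 0.31 SE, adjusted p = 0.988), against 4.27% of all genes. The count of 6 became 2 without DOX/IgG1 tumor 1, DOX/IgG1 tumor 2 or DOX/anti-PD-1 tumor 3, and to 3 without DOX/IgG1 tumor 3. It was 2 when the variance was estimated without a trend. The type I median turned to 0.13 without DOX/IgG1 tumor 1 and to 0.05 without DOX/anti-PD-1 tumor 3.

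Checkpoint blockade alone, anti-PD-1 against IgG1, gave uneven differences. In the IFIT family all 4 genes were higher with a median of 0.52, and the mean of the family did not overlap (0.50 higher, or 0.23 without anti-PD-1 tumor 1). Mx1 was at 7.79, 12 and 7.59 TPM in the IgG1 tumors, 42.3, 12.1 and 18.3 in the anti-PD-1 tumors, 16, 13.8 and 10.5 in the DOX/IgG1 tumors and 18.5, 24.2 and 19.97 in the DOX/anti-PD-1 tumors. All anti-PD-1 tumors exceeded all IgG1 tumors, the first by far the most (log2 fold change 1.16 ± 0.43 SE, adjusted p = 0.996). Limma called 0 of 42 members and 0 of 13692 genes (0%). At an unadjusted p below 0.05 Mx1 was the 1 member higher and 0 were lower, against 1.75% and 2.85% of all genes. Ifit2 (0.63 ± 0.29 SE) and Xaf1 (0.45 ± 0.23 SE) were also higher without overlap, against 3.64% of all genes higher and 6.24% lower. In the interferon-gamma-leaning class the lowest p belonged to Igtp (0.43 ± 0.30 SE), Irgm2 (0.37 ± 0.28 SE) and Gbp6 (0.44 ± 0.39 SE), each with overlap. The medians were 0.23 in the interferon-gamma-leaning class and 0.19 in the type I class, against -0.03 over all genes. Without anti-PD-1 tumor 1 the former turned to -0.04 and the count of 1 became 0. The count became 2 without IgG1 tumor 3, anti-PD-1 tumor 2 or anti-PD-1 tumor 3.

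Doxorubicin over both antibodies, on 6 tumors against 6, gave medians of 0.25 in each class, against 0.12 over all genes, or 0.13 in each class against 0.01 after rescaling by the median of ratios. All 9 interferon-gamma-leaning genes were higher, or 7 of 9 after rescaling. Limma called 0 of 42 members, against 13 of 14735 genes (0.0882%). These 13 became 246 higher and 55 lower without DOX/IgG1 tumor 1 and 0 without IgG1 tumor 2 or anti-PD-1 tumor 1, with 0 members called each time. At an unadjusted p below 0.05, 8 members were higher and 0 lower, against 8.69% and 3.19% of all genes. They were Gbp6 (log2 fold change 0.85 ± 0.26 SE, adjusted p = 0.253), Gbp7 (0.63 ± 0.20 SE) and Gbp5 (0.74 ± 0.33 SE), and Trim30a (0.65), Ifit1 (0.62), Dhx58 (0.61), Usp18 (0.47) and Ifit2 (0.48) in the type I class. The exact permutation p was 0.0130 for Gbp6 and Gbp7 and 0.00866 for Dhx58, and it was above 0.05 for Gbp5 (0.0996) and Ifit2 (0.0693), not adjusted for the number of genes. The count of 8 became 13 without anti-PD-1 tumor 1 and 5 without anti-PD-1 tumor 2, anti-PD-1 tumor 3, DOX/IgG1 tumor 2 or DOX/anti-PD-1 tumor 2, and was 5 after rescaling. Of all 14698 genes tested after rescaling, 799 were higher and 893 lower at an unadjusted p below 0.05.

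Anti-PD-1 over both chemotherapy arms gave medians of -0.27 in the interferon-gamma-leaning class, with all 9 lower, and 0.02 in the type I class. After rescaling by the median of ratios 8 of the 9 were lower. The arms were opposed in that class, with 7 of 9 genes higher in anti-PD-1 against IgG1 tumors and 0 of 9 where doxorubicin was given. Limma called 0 of 42 members, against 1 of 14735 genes (0.00679%). At an unadjusted p below 0.05, Mx1 was the 1 member higher (log2 fold change 0.89 ± 0.28 SE, adjusted p = 0.822) and Gbp5 the 1 lower (log2 fold change -0.80 ± 0.33 SE, adjusted p = 0.9997), against 1.75% and 3.02% of all genes. The next lowest p belonged to Gbp7 (-0.34), Irgm1 (-0.29), Ifi35 (-0.27) and Rsad2 (0.50). The type I median turned to -0.04 without anti-PD-1 tumor 1 and to -0.0098 without DOX/IgG1 tumor 3. The count of 2 became 1 without anti-PD-1 tumor 3 or DOX/IgG1 tumor 1.

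Other genes of the pathway, outside the 42, gave 0 calls by limma in all 7 fits. In DOX/IgG1 against IgG1 tumors, 27 of 29 further interferon-gamma targets were found and 24 tested, and 22 of these had higher means with a median log2 fold change of 0.72, with 8 at an unadjusted p below 0.05 higher and 1 lower, against 5.03% and 2.70% of all genes. Of 33 further type I targets tested, 26 were higher with a median of 0.22 and 6 were below that limit, all higher. Gbp4 (log2 fold change 1.36 ± 0.47 SE, adjusted p = 0.552) and Gbp9 (log2 fold change 1.16 ± 0.45 SE, adjusted p = 0.597), 2 further guanylate-binding proteins, were higher on average but overlapped. The chemokine Cxcl9 was lower without overlap (log2 fold change -1.64 ± 0.63 SE, adjusted p = 0.591), against 4.64% of all genes, and Cxcl10 differed by -0.87 ± 0.71 SE with overlap. Ube2l6, the E2 enzyme of Isg15 conjugation, is named after its values were seen: it was at 8.5, 6.45 and 13.4 TPM in the IgG1 tumors, 22.8, 20.4 and 22.6 in the anti-PD-1 tumors, 43.3, 37.7 and 22.2 in the DOX/IgG1 tumors and 20.4, 17.6 and 18 in the DOX/anti-PD-1 tumors. All DOX/IgG1 tumors exceeded all IgG1 tumors and all DOX/anti-PD-1 tumors for it, and its interaction was -1.99 ± 0.45 SE with an adjusted p of 0.993. The same lists in DOX/anti-PD-1 against anti-PD-1 tumors had medians of 0.24 for interferon-gamma targets and 0.06 for type I targets, with 1 gene each higher at an unadjusted p below 0.05, against 6.30% of all genes.

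The machinery that induces interferons, 17 genes of which 16 were tested, had a median of 0.14 with doxorubicin under IgG1 and of 0.15 with doxorubicin under anti-PD-1. The feedback inhibitors were at -0.06 and 0.20. Socs1, the inhibitor of Jak kinases, stayed low, from 0 to 3.36 TPM. The receptors had medians of -0.22 and -0.02 in these comparisons. Single genes lay further out in DOX/anti-PD-1 against anti-PD-1 tumors. Ikbke (log2 fold change 1.305 ± 0.46 SE) of the induction machinery and the feedback inhibitor Socs3 (1.23 ± 0.47 SE) were higher without overlap, against 11.1% of all genes. Tmem173 (-0.69 ± 0.34 SE) was lower without overlap, against 3.84%. Myd88 (1.00 ± 0.39 SE) was higher on average with overlap.

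Levels in whole tumors mix cell types, and fewer cells of a type and less RNA per cell cannot be told apart. Marker lists are given for that reason. The 7 T cell markers summed to 25, 18.7 and 8.41 TPM in the IgG1 tumors, 5.59, 17.9 and 9.2 in the anti-PD-1 tumors, 7.3, 54 and 44 in the DOX/IgG1 tumors and 17.5, 18.3 and 35.5 in the DOX/anti-PD-1 tumors. Cd3e was the most abundant and was listed at 0 in anti-PD-1 tumor 1, and each of the 7 was at 0 in at least 1 tumor. The 8 NK cell markers, led by Klrd1, summed to 17.3, 14.9 and 11.5 TPM in the IgG1 tumors, 12, 17.9 and 28.4 in the anti-PD-1 tumors, 11.4, 60.7 and 54.4 in the DOX/IgG1 tumors and 18.6, 32.8 and 22.6 in the DOX/anti-PD-1 tumors. DOX/IgG1 tumors 2 and 3 were highest for both lists, whereas DOX/IgG1 tumor 1, with the highest level of both member classes in its group, was among the lowest, with Klrd1 listed at 0 there and in IgG1 tumor 1. Ptprc, found on all leukocytes, was at 88, 100.4 and 155 TPM in the IgG1 tumors, 80.9, 106 and 58.8 in the anti-PD-1 tumors, 51.9, 123 and 170.2 in the DOX/IgG1 tumors and 60.1, 105 and 78.3 in the DOX/anti-PD-1 tumors, lowest in the same tumor. The 9 macrophage markers, led by C1qa, summed to 555, 379 and 455 TPM in the IgG1 tumors, 323, 414 and 348 in the anti-PD-1 tumors, 694, 540.4 and 455 in the DOX/IgG1 tumors and 369, 558 and 408 in the DOX/anti-PD-1 tumors, highest in that tumor. In DOX/IgG1 against IgG1 tumors 1 of 6 T cell markers tested, 1 of 5 NK cell markers and 0 of 9 macrophage markers were higher at an unadjusted p below 0.05, against 5.03% of all genes, and 0 were called. Their part in the levels of the members was not tested.

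The 6 epithelial markers, present in every tumor, summed to 3612, 2529 and 3121 TPM in the IgG1 tumors, 2858, 2146 and 2376 in the anti-PD-1 tumors, 2039.5, 3168 and 3675 in the DOX/IgG1 tumors and 3012, 2708 and 2234 in the DOX/anti-PD-1 tumors. Epcam, the most abundant, was at 938, 846 and 954 TPM in the IgG1 tumors, 911, 712 and 757 in the anti-PD-1 tumors, 565, 522 and 418 in the DOX/IgG1 tumors and 734, 920.1 and 468 in the DOX/anti-PD-1 tumors. Every DOX/IgG1 tumor was below every IgG1 tumor for Epcam, against 4.64% of all genes, whereas the sums of these groups overlapped. For doxorubicin over both antibodies Epcam was at -0.54 ± 0.19 SE and Krt19 went the other way, at 0.82 ± 0.38 SE. Krt8, Krt18, Cdh1 and Elf5 lay between -0.36 and -0.04. Fibroblast markers, 6 genes led by Col1a1, summed to 789, 846 and 1312 TPM in the IgG1 tumors, 638, 556 and 449 in the anti-PD-1 tumors, 359.9, 1451 and 984 in the DOX/IgG1 tumors and 759, 1012 and 1157 in the DOX/anti-PD-1 tumors. Adipocyte markers, 5 genes led by Adipoq, summed to 36.1, 163 and 104 TPM in the IgG1 tumors, 45.1, 38.1 and 69.7 in the anti-PD-1 tumors, 81.1, 384 and 56.1 in the DOX/IgG1 tumors and 476, 101 and 107 in the DOX/anti-PD-1 tumors. The adipocyte sums were highest in DOX/anti-PD-1 tumor 1 and DOX/IgG1 tumor 2, and the fibroblast sum was lowest in DOX/IgG1 tumor 1. The 7 endothelial markers, led by Pecam1, summed to 118, 119 and 185 TPM in the IgG1 tumors, 107, 105 and 99.7 in the anti-PD-1 tumors, 126, 177 and 105 in the DOX/IgG1 tumors and 146, 171 and 82.2 in the DOX/anti-PD-1 tumors. The 6 markers of plasmacytoid dendritic cells, a main source of type I interferon, summed to 86.1, 152 and 212 TPM in the IgG1 tumors, 150.4, 124 and 119 in the anti-PD-1 tumors, 181, 177 and 169 in the DOX/IgG1 tumors and 103, 124 and 174 in the DOX/anti-PD-1 tumors, mostly from Tcf4, which other cells express as well. The 4 B cell markers, led by Cd79b, were at or near 0, with a sum of at most 3.59 TPM in any tumor. In DOX/anti-PD-1 against anti-PD-1 tumors 4 of 6 fibroblast and 4 of 5 adipocyte markers were higher at an unadjusted p below 0.05, against 6.30% of all genes. In DOX/IgG1 against IgG1 tumors 0 were higher at that limit, against 5.03%. Col1a1 was lower without overlap there (log2 fold change -1.20 ± 0.35 SE, adjusted p = 0.494), against 4.64% of all genes. The other fibroblast markers went both ways in that comparison, all with overlap. Dcn (1.37 ± 0.65 SE), Lum (0.68 ± 0.66 SE) and Pdgfra (0.46 ± 0.57 SE) were higher, and Col1a2 (-0.44 ± 0.39 SE) and Pdgfrb (-0.16 ± 0.39 SE) lower. In anti-PD-1 against IgG1 tumors Col1a1 (log2 fold change -1.503 ± 0.30 SE, adjusted p = 0.564) and Pdgfrb (-0.43 ± 0.31 SE) were lower without overlap, against 6.24%. The part of these cells in the members' levels was not tested.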

How the data were processed

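RNA of 12 tumors, 3 in each of 4 groups, was prepared by the authors with a SMARTer stranded total RNA kit, sequenced single end on a NextSeq instrument, trimmed with skewer, aligned to mm10 with STAR and counted with RSEM. The authors give the deposited values as log2(TPM + 1), written with decimal commas, and they were read back to TPM. The unit rests on that statement, since the tables themselves do not tell TPM from FPKM. Sequencing depth cannot be read from TPM, and counting intervals are not given. The listed genes summed to 609418 to 725506 TPM per tumor, and 6534 to 8104 of 21960 genes were at 0. No tables were identical.

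Genes at 1 TPM or more in at least 3 tumors of a comparison were tested on log2(TPM + 1) with limma 3.58.1 in R 4.3.3 (lmFit and eBayes with a trend), with Benjamini-Hochberg adjustment over all genes tested. Calls were made at an adjusted p below 0.1 with a log2 fold change above 1 in size. There were 4 comparisons of 3 tumors against 3, and 3 fits on all 12 tumors (doxorubicin over both antibodies, anti-PD-1 over both chemotherapy arms, and their interaction). Exact permutation tests were two-sided. The labels do not say that tumors came from separate animals, and p-values measure the spread between these samples.

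The alternatives were a pseudocount of 0.1, no filter on low values, a filter on the mean, rescaling by the median of ratios, no variance trend, other limits for a call, a replicate block, 1 fit of all 12 tumors, and leaving out each tumor. Members, classes and lists were chosen with earlier results of these data known. Promoter windows came from RefSeq, and shared sequence was counted in windows of 75 bases. Mx2, which has no row, was left out.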

Additional observations from a re-analysis of the deposited data

Results flagged for a closer look

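The type I mean minus the interferon-gamma-leaning mean was lower in all 3 DOX/IgG1 tumors than in all 3 IgG1 tumors and above every anti-PD-1 tumor in each of the 3 DOX/anti-PD-1 tumors. The doxorubicin effects on this score differed by 0.589 on the log2 scale between the antibodies. This difference was not tested.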

How the results depend on the processing

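For 66 gene values compared, all 973 values under an alternative kept their direction and side of the limits. These do not cover every member in every fit, and other members did change direction. After rescaling by the median of ratios, 17 of the 33 type I genes were higher in DOX/anti-PD-1 against anti-PD-1 tumors, instead of 24. None of 120 counts of called members moved from 0, and none of 212 class medians moved by more than the spread between replicates, while 8 changed sign, each on leaving out 1 tumor.

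Counts of members at an unadjusted p below 0.05, and differences between the class means, were recomputed under alternatives chosen after seeing the data. Without a variance trend the count was 0 for DOX/anti-PD-1 tumors against anti-PD-1 tumors (1 with it), 2 for DOX/anti-PD-1 tumors against DOX/IgG1 tumors (6) and 2 for the interaction (8). With no filter on low values it was 2 for DOX/anti-PD-1 tumors against anti-PD-1 tumors. Rescaled by the median of ratios it was 2 between anti-PD-1 and IgG1 tumors (1) and 5 for doxorubicin over both antibodies (8). With a replicate block it was 2 between anti-PD-1 and IgG1 tumors. Correlations of the deviations of tumors with the same replicate number, over all genes tested, lay between -0.096 and 0.134. After rescaling by the median of ratios, tumor 1 had the highest mean over members in each group (IgG1 5.23, anti-PD-1 5.78, DOX/IgG1 5.78, DOX/anti-PD-1 5.58). Without rescaling, IgG1 tumor 1 was the lowest of its group (5.01). Tumor 1 also had the most genes at 0 in each group (7693, 7611, 8104 and 7730 in the same order). Whether the numbers pair the tumors was not tested further.

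Leaving out each tumor in turn gave 7 to 12 for DOX/IgG1 against IgG1 (13 with all tumors), 0 to 2 for DOX/anti-PD-1 against anti-PD-1, 0 to 2 for anti-PD-1 against IgG1, 2 to 7 for DOX/anti-PD-1 against DOX/IgG1, 5 to 13 for doxorubicin over both antibodies, 1 to 3 for anti-PD-1 over both chemotherapy arms and 1 to 8 for the interaction. The differences between the class means kept their sign under every alternative run. The cause of these shifts was not tested.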
